A study of Homo sapiens with 12 samples.

Results

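Interferon-stimulated genes are genes that a cell switches on in response to interferon, for instance after foreign nucleic acid is detected. Cytosolic sensors such as RIG-I (DDX58), MDA5 (IFIH1) and PKR (EIF2AK2), and the endosomal receptor TLR3, bind double-stranded RNA, and the first pair signal through the mitochondrial adaptor MAVS to the kinases TBK1 and IKBKE and to IRF3, which induces interferons. Secreted interferon then signals back through its receptors to transcription factors such as STAT2 and IRF9, which drive the effector genes. The 49 genes described here were listed by symbol as interferon-stimulated or RNA-sensing genes. All 49 were found among the 48114 genes of the deposited tables. The list is defined by symbol alone, but it was drawn up with earlier results of these data known.

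RNA was measured by polyA sequencing in 12 libraries of 2 pancreatic ductal adenocarcinoma (PDAC) cell lines. PANC-1, a line used as a basal-like model, was transfected with a control siRNA (siCtrl), with siRNA against the splicing factor QKI (siQKI) or with siRNA against the splicing factor RBFOX2 (siRBFOX2), the knockdown siRNAs at 40 nM, and was collected after 48 h, with 3 biological replicates each. HPAF-II, a line of the classical subtype, received the control siRNA (3 biological replicates). The siRNAs enter the cell as short double-stranded RNA with a lipid carrier, so every library, siCtrl included, comes from cells given RNA. No untransfected cells were analysed here, and a response common to all siRNAs cannot be measured. In these libraries no knockdown was paired with a rescue of its target. Loss of the target therefore cannot be told apart from a response to the siRNA itself. No dose of the control siRNA is given for either line, so an equal dose in all groups cannot be assumed. What can be compared is whether interferon-stimulated genes differed between siRNAs, and between both lines given the control siRNA.

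Normalised counts are gene counts divided by a size factor for each library. Summed before that division, a PANC-1 library held 292248837 to 376192091 units and an HPAF-II library held 226697015 to 309720537. These units are not sequenced fragments, so the depth in fragments is unknown and precision is taken from the replicates. QKI was at 25909, 24539 and 26150 normalised counts with siCtrl and at 4630, 5453 and 5020 with siQKI. RBFOX2 was at 15355, 15508 and 15424 with siCtrl and at 2403, 2171 and 1712 with siRBFOX2. Each target was therefore lower in its own knockdown. RBFOX2 was also somewhat lower with siQKI, at 12629, 12778 and 12520 (log2 fold change -0.29 ± 0.09, adjusted p = 0.0207, limma). The 7 markers of the carcinoma cells include the mesenchymal gene VIM. Their summed level was 2727268 to 2769575 with siCtrl, 2509964 to 2643715 with siQKI, 2489569 to 2593261 with siRBFOX2 and 3065735 to 3368026 in HPAF-II. EPCAM and KRT7, and VIM in PANC-1, enter by that sum only. The keratins KRT8, KRT18 and KRT19 were at 130474 normalised counts or more in every library. The epithelial cadherin CDH1 moved with the knockdowns. It was at 995, 997 and 968 with siCtrl, 3026, 2275 and 2528 with siQKI (adjusted p = 1.54e-07, limma) and 1438, 1535 and 1322 with siRBFOX2 (adjusted p = 0.00177, limma). The summed level of 6 fibroblast markers was 4166 to 4700 with siCtrl, 8490 to 9751 with siQKI, 5154 to 7443 with siRBFOX2 and 5495 to 6509 in HPAF-II, most of it COL1A1. The summed level of 6 leukocyte markers was 50940 to 57741 with siCtrl, 38632 to 39507 with siQKI, 43070 to 44917 with siRBFOX2 and 322570 to 353279 in HPAF-II. In PANC-1 nearly all of that sum was the lysosomal protein CD68, and in HPAF-II most was lysozyme (LYZ). PTPRC, which marks all leukocytes, was at 0 in 10 of the 12 libraries and at 20.3 and 4.63 in siRBFOX2 replicates 2 and 3, and the T cell gene CD3E was at 0 in all but HPAF-II replicate 2 (24.1). The part of these markers in the differences between groups was not tested. In HPAF-II, replicate 1 stood apart with VIM at 4248 against 81.3 and 85.3, and COL1A2 at 970 against 0 and 0.

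Of the 49 genes, 48 had a mean of at least 10 normalised counts over the 9 PANC-1 libraries and were tested among 22544 genes. The exception was IFI44L, listed at 0 in all 9. Another 15 genes had a mean under 500, and TLR3 was the only tested gene with a mean under 10 in one of the groups. A gene is called changed at an adjusted p under 0.05 (limma, Benjamini-Hochberg over all tested genes). Each knockdown is compared with the same 3 siCtrl libraries.

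After RBFOX2 knockdown, 20 of the 48 genes changed (41.7%), 18 upward and 2 downward. Over all tested genes 26.5% were called, 12.0% higher and 14.5% lower. Among called genes the largest rises were in XAF1 (3.42-fold), SAMD9L (2.25-fold) and MX1 (2.17-fold). The median log2 fold change of the 48 genes was 0.23, against 0.01 for all tested genes. A change of at least 1.5-fold was called in 6 of the 48 genes (5.71% of all tested genes). In 25 of the 48 genes the siRBFOX2 and siCtrl libraries did not overlap, against 37.9% of all tested genes.

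After QKI knockdown, 17 of the 48 genes changed (35.4%), 5 upward and 12 downward. The upward calls were 3 without siCtrl replicate 1, 2 without siCtrl replicate 3, 2 without siQKI replicate 1 and 2 without the mean-variance trend of the fit. The share called was close to that of all tested genes, 33.0% (14.9% higher and 18.1% lower). Under rescaling by the upper quartile, the higher genes among all called genes went from 45.2% to 58%, and the listed genes were called 6 higher and 10 lower. Among called genes, ISG20 (1.86-fold lower), IFIT2 (1.66-fold lower) and IFIT3 (1.57-fold lower) fell most, and XAF1 (1.82-fold) and IFITM1 (1.55-fold) rose most. A change of at least 1.5-fold was called in 7 genes (9.03% of all tested genes). The median log2 fold change was -0.08, against 0.03 for all tested genes, and libraries did not overlap in 19 genes (44.7% of all tested genes).

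Set directly against each other, the knockdowns differed in 28 of the 48 genes (58.3%). Of these, 27 were lower with siQKI than with siRBFOX2 and 1, IFITM1, was higher. Over all tested genes 21.5% were called, 9.93% higher and 11.6% lower with siQKI. At 1.5-fold or more 9 of the 48 were called (4.33% of all tested genes). The median of the 48 genes was -0.44, against 0.01 for all tested genes, and 29 had libraries that did not overlap, against 35.2% of all tested genes.

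**Figure D1:**
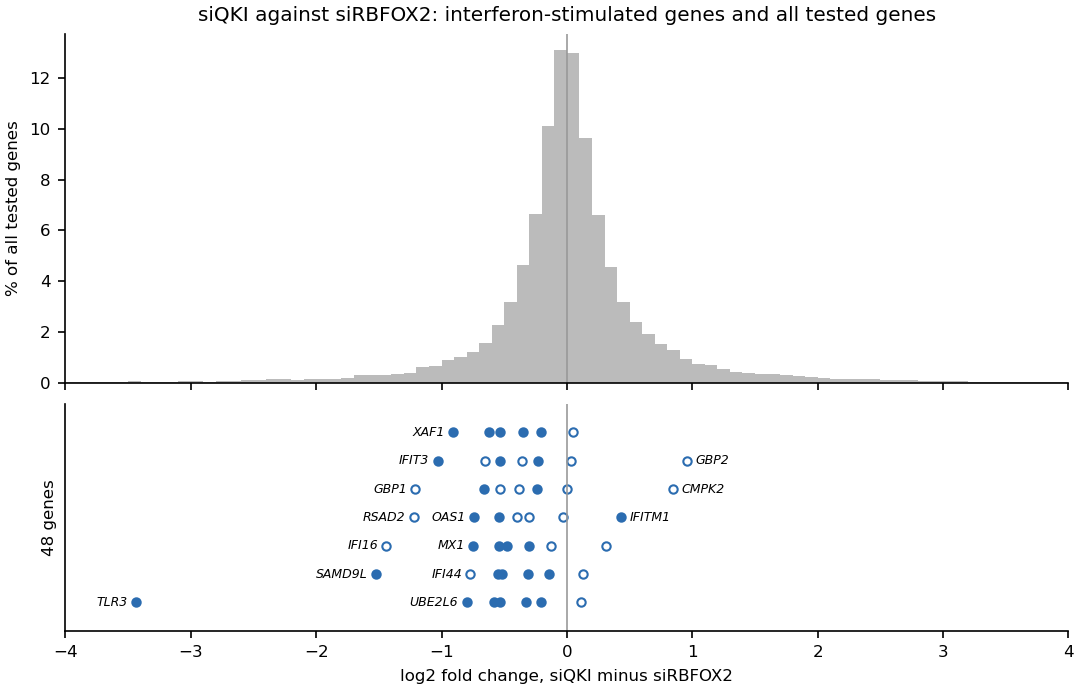
Log2 fold changes of siQKI against siRBFOX2 (x axis, negative means lower with siQKI). The upper panel gives all tested genes as a percentage per bin of 0.1, with 40 genes outside the range, and the lower panel gives the 48 interferon-stimulated and RNA-sensing genes at arbitrary heights, filled where called. Filled points lie left of 0 for 27 genes and right of it for 1, IFITM1.

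**Figure D2:**
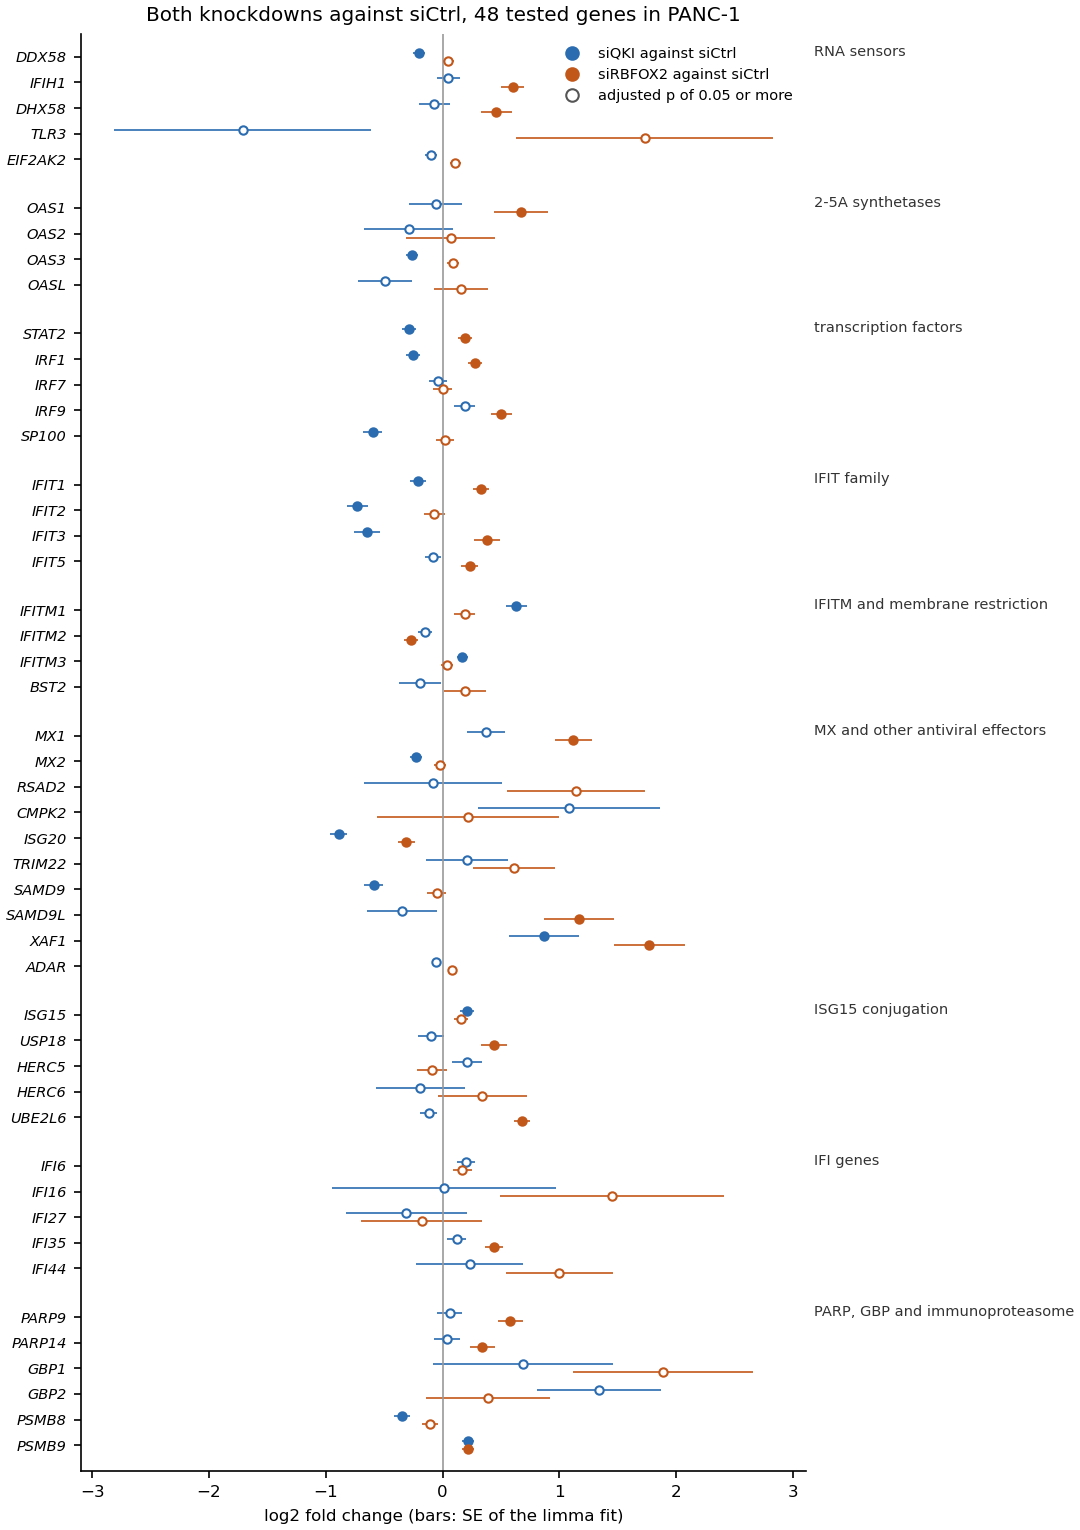
Log2 fold change (x axis) with its standard error for the 48 tested genes, grouped by role, after QKI knockdown (blue) and RBFOX2 knockdown (orange), each against the same siCtrl libraries. Filled points are called; 18 orange points are filled right of 0 and 12 blue points left of it.

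Many of these genes share a response element in their promoters, and the sequences of the most changed genes are given here so that their upstream regions can be compared. RefSeq promoter windows (GRCh38.p14, 250 bases before to 50 after the start) matched 39 of the 49 genes by symbol or synonym, and 38 of these starts lay within 5 kb of the gene's position in the deposited tables. The core of the interferon-stimulated response element was searched as GAAANNGAAA, and the core of the gamma-activated site as TTCNNNGAA, on both strands. The first was in 21 of the 39 windows (53.8%), against 3.65% of all 27305 windows. It had more than 1 match in 13 genes, but overlapping matches were each counted, as with the 2 in ISG15 and the 2 in BST2. The second core was in 9 (23.1%), against 7.88% of all windows. Both were in 5 genes, and in IFITM1, BST2 and IFI27 the matches overlapped. A match is only a description of these letters, and the listed genes were picked as interferon-stimulated, so a high share is no separate finding.

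The printed stretches are the 200 bases before the start, 5′ to 3′ on the gene's strand, for the 3 genes with the largest called rise after RBFOX2 knockdown and for 2 of the 3 with the largest called fall after QKI knockdown (IFIT2 is the third). Capitals mark matches to GAAANNGAAA or its reverse complement. The stretches lie at chr17:6755846-6756045 (plus strand) for XAF1, chr7:93148386-93148585 (minus strand) for SAMD9L, chr21:41420358-41420557 (plus strand) for MX1, chr15:88638816-88639015 (plus strand) for ISG20 and chr10:89327797-89327996 (plus strand) for IFIT3.
XAF1: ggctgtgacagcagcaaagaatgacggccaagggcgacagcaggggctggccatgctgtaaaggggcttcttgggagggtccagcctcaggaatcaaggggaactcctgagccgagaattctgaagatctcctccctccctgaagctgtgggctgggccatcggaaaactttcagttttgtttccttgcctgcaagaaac
SAMD9L: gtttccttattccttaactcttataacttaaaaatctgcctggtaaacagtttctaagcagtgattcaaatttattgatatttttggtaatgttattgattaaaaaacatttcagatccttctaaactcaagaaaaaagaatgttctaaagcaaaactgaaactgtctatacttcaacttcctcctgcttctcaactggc
MX1: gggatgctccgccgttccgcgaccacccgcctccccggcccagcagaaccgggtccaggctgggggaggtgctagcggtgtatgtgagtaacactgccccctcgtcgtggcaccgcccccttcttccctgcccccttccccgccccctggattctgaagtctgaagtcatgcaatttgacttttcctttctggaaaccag
ISG20: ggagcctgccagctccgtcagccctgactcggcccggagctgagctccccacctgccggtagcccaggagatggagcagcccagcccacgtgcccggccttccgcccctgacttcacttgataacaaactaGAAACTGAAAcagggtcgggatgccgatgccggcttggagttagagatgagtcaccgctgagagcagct
IFIT3: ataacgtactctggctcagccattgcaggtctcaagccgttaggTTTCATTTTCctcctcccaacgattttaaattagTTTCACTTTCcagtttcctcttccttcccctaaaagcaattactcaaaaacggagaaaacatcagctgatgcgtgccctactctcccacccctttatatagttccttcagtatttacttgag

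IFIT3 held 2 matches in these bases and ISG20 held 1, while XAF1, SAMD9L and MX1 held none. The single MX1 match in its window starts 11 bases after the gene's start. Among genes with a window, the motif was in 6 of the 16 that rose after RBFOX2 knockdown and in 14 of the 22 that were not called there. After QKI knockdown it was in 3 of the 5 that rose, in 5 of the 10 that fell and in 13 of the 24 not called. The gamma-activated site core was in 5 of the 16 that rose after RBFOX2 knockdown and in 4 of the 22 not called. After QKI knockdown it was in 1 of the 5 that rose, in 1 of the 10 that fell and in 7 of the 24 not called. These shares were not tested against each other.

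The first role is RNA sensing. All 5 sensors were called lower with siQKI than with siRBFOX2, against 11.6% of all tested genes. IFIH1 and DHX58 (LGP2, a regulator of the other RIG-I-like receptors) rose after RBFOX2 knockdown, where 12.0% of all tested genes were called higher. IFIH1 was at 1593, 1794 and 1683 normalised counts with siCtrl, at 1801, 1949 and 1508 with siQKI, and at 2428, 2669 and 2572 with siRBFOX2. Every siRBFOX2 library was above every other library, while siQKI overlapped siCtrl. The log2 fold change was 0.60 ± 0.10 (SE) with siRBFOX2 (adjusted p = 0.000362, limma) and 0.05 ± 0.10 with siQKI. DHX58 was at 679, 816 and 825 with siCtrl, at 721, 762 and 722 with siQKI, and at 1173, 959 and 1059 with siRBFOX2. Its rise of 0.46 ± 0.13 (adjusted p = 0.0136, limma) missed the threshold without siCtrl replicate 1 (adjusted p = 0.063) or without siRBFOX2 replicate 1 (adjusted p = 0.0685).

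DDX58 fell slightly after QKI knockdown, by 0.20 ± 0.05 on the log2 scale (adjusted p = 0.00943, limma), from 8541, 8600 and 9090 to 7693, 7583 and 7627. Both groups were apart, and the siRBFOX2 libraries, at 8459, 9349 and 9288, overlapped siCtrl. EIF2AK2, the kinase PKR that halts translation, lay at 11366 to 11967 with siQKI and at 12847 to 13975 with siRBFOX2, on either side of the siCtrl range of 12269 to 12661, and passed the test only between the knockdowns. TLR3 had very low values in PANC-1, at 31.6, 17 and 6.04 with siCtrl, 21.7, 0 and 4.19 with siQKI and 33.7, 45.5 and 92.6 with siRBFOX2. The difference between the knockdowns (-3.44 ± 1.10, adjusted p = 0.0368, limma) was lost without siQKI replicate 2 (adjusted p = 0.131) or 3 (0.0712), or without siRBFOX2 replicate 1 (0.0592), 2 (0.0751) or 3 (0.144).

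The oligoadenylate synthetases make a second messenger that leads to RNA degradation. OAS1 rose after RBFOX2 knockdown (0.67 ± 0.23, adjusted p = 0.0441, limma) and OAS3 fell after QKI knockdown (-0.26 ± 0.05, adjusted p = 0.00138, limma), while OAS2 and OASL were called in no comparison. OAS1 was at 359, 498 and 258 with siCtrl, at 430, 288 and 325 with siQKI, and at 580, 513 and 629 with siRBFOX2. Its siRBFOX2 libraries were above the rest, but the call was lost without siCtrl replicate 1 (adjusted p = 0.0888) or 3 (0.201), without siQKI replicate 3 (0.0536), or without siRBFOX2 replicate 1 (0.102), 2 (0.0591) or 3 (0.126). OAS3, with far more counts, was at 9345, 10190 and 10533 with siCtrl, at 8702, 8117 and 8267 with siQKI, and at 10654, 10467 and 10852 with siRBFOX2. All siQKI libraries were the lowest, and siRBFOX2 overlapped siCtrl.

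Among transcription factors, STAT2 and IRF1 fell with siQKI and rose with siRBFOX2, IRF9 rose with siRBFOX2, SP100 fell with siQKI, and IRF7 was called nowhere. STAT2, which carries the signal of the type I receptor, was at 8796, 8444 and 9130 with siCtrl, at 7429, 6853 and 7303 with siQKI, and at 10666, 9814 and 9708 with siRBFOX2. The 3 groups did not overlap, with log2 fold changes of -0.29 ± 0.06 (adjusted p = 0.000795, limma) and 0.19 ± 0.06 (adjusted p = 0.0165, limma). The smaller rise missed the threshold without siCtrl replicate 2 (adjusted p = 0.0729) or siRBFOX2 replicate 1 (0.0858). IRF1, an activator that interferon-gamma induces, was at 12122, 12976 and 12702, at 10075, 11595 and 10181, and at 14098, 15568 and 16205 in the same order, and again the groups were separate. Its log2 fold changes were -0.25 ± 0.06 with siQKI and 0.28 ± 0.06 with siRBFOX2, and both calls were lost without the mean-variance trend (adjusted p = 0.0564 and 0.0505, limma).

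IRF9 was at 1563, 1457 and 1538 with siCtrl, at 1802, 1687 and 1698 with siQKI, and at 1939, 2436 and 2082 with siRBFOX2. Both knockdowns were above siCtrl in every library, but only the siRBFOX2 difference was called (0.50 ± 0.09, adjusted p = 0.00111, limma). The direct difference between the knockdowns (-0.31 ± 0.09, adjusted p = 0.0284, limma) was lost without siQKI replicate 2 (adjusted p = 0.088) or 3 (0.0839), or without siRBFOX2 replicate 2 (0.124). The annotated span of IRF9 lies within that of PSME2, a proteasome activator subunit, which differed by 0.08 with siQKI and 0.10 with siRBFOX2 and was not called. PSME2 had a mean of 31308 over the 9 PANC-1 libraries, against 1800 for IRF9. Strand is not stated, so shared reads cannot be told apart. SP100, a nuclear body protein, was at 4402, 3865 and 4549 with siCtrl, at 2886, 2939 and 2600 with siQKI, and at 4407, 3971 and 4596 with siRBFOX2. It was 1.52-fold lower in siQKI, with no overlap, and hardly differed between siCtrl and siRBFOX2 (0.02 ± 0.08).

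The IFIT genes lie side by side at chr10:89302000-89420997 (hg38) and encode proteins that bind foreign RNA ends and block translation. All 4 were called lower with siQKI than with siRBFOX2, against 11.6% of all tested genes. IFIT3 was at 4782, 3738 and 4065 with siCtrl, at 3098, 2700 and 2225 with siQKI, and at 5675, 5430 and 5159 with siRBFOX2. The knockdowns lay on opposite sides of siCtrl without overlap, -0.65 ± 0.11 (adjusted p = 0.000237, limma) and 0.38 ± 0.11 (adjusted p = 0.0177, limma), and 2.04-fold apart from each other. The rise was lost without siCtrl replicate 2 (adjusted p = 0.0852) or 3 (0.0614), or without siRBFOX2 replicate 1 (0.0658). IFIT2 was at 4772, 4072 and 4098 with siCtrl, at 2769, 2534 and 2470 with siQKI, and at 4003, 4547 and 3758 with siRBFOX2. It fell by 0.73 ± 0.09 on the log2 scale with siQKI, while siRBFOX2 overlapped siCtrl.

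IFIT1 was at 5599, 5675 and 5187 with siCtrl, at 5323, 4708 and 4294 with siQKI, and at 7099, 6601 and 6960 with siRBFOX2. Only the siRBFOX2 libraries stood apart from siCtrl (0.33 ± 0.07, adjusted p = 0.00362, limma). The fall with siQKI (-0.21 ± 0.07, adjusted p = 0.043, limma) was lost without siCtrl replicate 1 (adjusted p = 0.111) or 2 (0.13), without siQKI replicate 2 (0.106) or 3 (0.211), and without siRBFOX2 replicate 1 (0.0519) or 3 (0.0513), and under upper-quartile rescaling (0.157). IFIT5 rose with siRBFOX2 by 0.23 ± 0.07, a call lost without siCtrl replicate 2 (adjusted p = 0.103, limma) or siRBFOX2 replicate 1 (0.12) or 2 (0.0789). In the tables the spans of IFIT1, IFIT2 and IFIT3 lie within that of LIPA, a lysosomal lipase gene, and strand is not stated, so shared reads cannot be told apart. LIPA itself differed by -0.07 with siQKI and by -0.02 with siRBFOX2 and was not called.

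**Figure D3:**
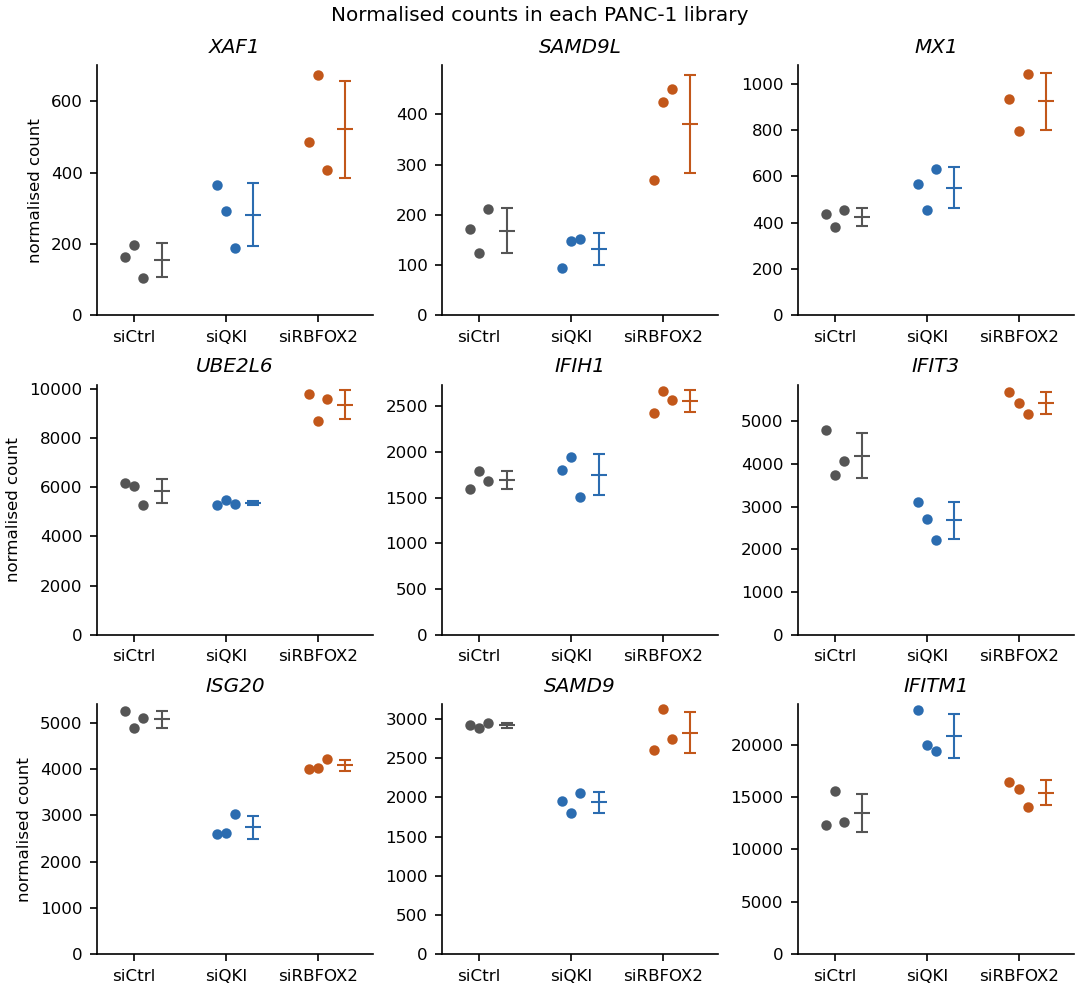
Normalised counts (y axis, from 0) of 9 genes in each PANC-1 library, one point per library, with the mean and SD of 3 beside the points. XAF1, SAMD9L, MX1, UBE2L6, IFIH1 and IFIT3 are highest with siRBFOX2, ISG20 and SAMD9 are lowest with siQKI, and IFITM1 is highest with siQKI.

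IFITM1 was the main gene that went the other way. The IFITM proteins sit in membranes and block viral fusion. IFITM1 was at 12307, 15595 and 12641 with siCtrl, at 23271, 19915 and 19362 with siQKI, and at 16407, 15779 and 14058 with siRBFOX2. The siQKI libraries were above all others (0.63 ± 0.09, adjusted p = 5.1e-05, limma), and siRBFOX2 overlapped siCtrl. The direct difference between the knockdowns (0.43, adjusted p = 0.00213, limma) was lost without the mean-variance trend (adjusted p = 0.0553). IFITM3, at 250072 to 314412 normalised counts the most counted gene of the list, rose with siQKI by 0.17 ± 0.05, a call lost without siCtrl replicate 3 (adjusted p = 0.0954, limma) or siQKI replicate 1 (0.086), and IFITM2 fell with siRBFOX2 by 0.27 ± 0.06. The coding sequences of the IFITM genes are nearly alike, so reads may have been divided between them. BST2 (tetherin), which holds budding virions at the cell surface, was called nowhere.

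Of the 10 other antiviral effectors, 3 rose and 1 fell with siRBFOX2, and 1 rose and 3 fell with siQKI. In each case 40% were called, against 26.5% and 33.0% of all tested genes. XAF1, a gene that promotes apoptosis, was at 162, 198 and 103 with siCtrl, at 364, 292 and 189 with siQKI, and at 486, 673 and 408 with siRBFOX2. The siRBFOX2 libraries were above all siCtrl and siQKI libraries (1.77 ± 0.30, adjusted p = 0.000443, limma), and siQKI overlapped siCtrl. The rise with siQKI (0.87 ± 0.30, adjusted p = 0.0377, limma) was lost without siCtrl replicate 1 (adjusted p = 0.0552) or 3 (0.166), siQKI replicate 1 (0.161) or 2 (0.104), or siRBFOX2 replicate 1 (0.0501). The direct difference between the knockdowns (-0.91 ± 0.30, adjusted p = 0.0424, limma) was lost without siQKI replicate 2 (0.0778) or 3 (0.188), or siRBFOX2 replicate 1 (0.0829) or 2 (0.167).

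MX1, a GTPase that traps viral nucleoproteins, was at 436, 381 and 455 with siCtrl, at 567, 454 and 630 with siQKI, and at 933, 796 and 1041 with siRBFOX2. Only siRBFOX2 was apart from siCtrl (1.12 ± 0.16, adjusted p = 0.000128, limma). The siQKI difference of 0.37 ± 0.16 missed the threshold (adjusted p = 0.102, limma) and passed it without siQKI replicate 2 (adjusted p = 0.043). Its neighbour MX2 fell by 0.23 ± 0.05 on the log2 scale with siQKI and differed by -0.02 ± 0.05 with siRBFOX2.

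SAMD9L and SAMD9 are adjacent genes for related antiviral proteins. SAMD9L was at 171, 123 and 212 with siCtrl, at 94.6, 148 and 152 with siQKI, and at 269, 424 and 450 with siRBFOX2. SAMD9 was at 2916, 2886 and 2952, at 1958, 1794 and 2057, and at 2609, 3120 and 2749 in the same order. SAMD9L rose with siRBFOX2 (1.17 ± 0.30, adjusted p = 0.0097, limma) and its siQKI libraries overlapped siCtrl, whereas SAMD9 fell with siQKI (-0.59 ± 0.08, adjusted p = 5.2e-05, limma) and its siRBFOX2 libraries overlapped siCtrl.

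ISG20, an exonuclease that degrades RNA, fell in both knockdowns. It was at 5250, 4878 and 5099 with siCtrl, at 2593, 2608 and 3022 with siQKI, and at 4012, 4014 and 4217 with siRBFOX2. The groups did not overlap, with log2 fold changes of -0.89 ± 0.07 (adjusted p = 1.89e-07, limma) and -0.31 ± 0.07 (adjusted p = 0.00384, limma). ADAR, the RNA editing enzyme that limits self-RNA sensing, differed only between the knockdowns (-0.14 ± 0.03, adjusted p = 0.00822, limma). RSAD2 (viperin), CMPK2 and TRIM22 lay between 12 and 341 normalised counts across the 9 libraries and were called nowhere.

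The ISG15 system attaches a ubiquitin-like protein to targets. UBE2L6, its conjugating enzyme, was at 6184, 6051 and 5299 with siCtrl, at 5299, 5472 and 5343 with siQKI, and at 9787, 8721 and 9616 with siRBFOX2. USP18, which removes ISG15 and damps receptor signalling, was at 1474, 2052 and 1658, at 1583, 1696 and 1511, and at 2391, 2290 and 2279. In both genes siRBFOX2 stood above every other library, with log2 fold changes of 0.68 ± 0.07 (adjusted p = 2.64e-06, limma) and 0.44 ± 0.11 (adjusted p = 0.0071, limma). ISG15 itself was at 6727 to 7981 with siCtrl, 8037 to 8898 with siQKI and 8002 to 8294 with siRBFOX2. It was called higher with siQKI only (0.21 ± 0.06), and that call was lost without siCtrl replicate 1 (adjusted p = 0.0592, limma) or 3 (0.107), or siQKI replicate 1 (0.0945). The ligases HERC5 and HERC6 were called nowhere.

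Among the IFI genes only IFI35 changed. It was at 3056, 3492 and 2836 with siCtrl, at 3305, 3490 and 3338 with siQKI, and at 4010, 4302 and 4400 with siRBFOX2, where it rose by 0.44 ± 0.08 (adjusted p = 0.00061, limma). IFI6 was at 4839 to 6397 in the 9 libraries, and IFI16, IFI27 and IFI44 were at most at 169 normalised counts, with IFI44L at 0.

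PARP9 and PARP14, members of the ADP-ribosyltransferase family, rose with siRBFOX2. PARP9 was at 1524, 1381 and 1172 with siCtrl, at 1482, 1242 and 1504 with siQKI, and at 2136, 1956 and 1974 with siRBFOX2 (0.58 ± 0.11, adjusted p = 0.00121, limma). PARP14 was at 1965, 2011 and 2242, at 1874, 2242 and 2286, and at 2542, 3016 and 2352 (0.34 ± 0.11, adjusted p = 0.0251, limma). In each, siRBFOX2 lay above both other groups, but the PARP14 call was lost without siCtrl replicate 1 (adjusted p = 0.0846) or 2 (0.0746), or siRBFOX2 replicate 2 (0.124). The immunoproteasome subunits moved apart from each other under siQKI. PSMB8 fell, from 4844, 4949 and 5134 to 4110, 3817 and 3811 (-0.35 ± 0.07), and was at 4656, 4230 and 4932 with siRBFOX2. PSMB9 rose by 0.22 ± 0.05 in each knockdown. The direct PSMB8 difference (-0.23 ± 0.07) was lost without siQKI replicate 2 (adjusted p = 0.0751, limma) or 3 (0.0753), or siRBFOX2 replicate 1 (0.0624) or 3 (0.0967). GBP1 and GBP2, interferon-gamma-induced GTPases, were called nowhere at 9.05 to 174 normalised counts, and GBP1 was 3.72-fold higher with siRBFOX2 without passing the test (adjusted p = 0.0849, limma).

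Interferon transcripts themselves were scarce. IFNB1 was at 0 in all siCtrl and siQKI libraries and at 15.8, 0 and 22.2 with siRBFOX2, too low to test. Of 21 interferon genes, IFNE, IFNL1, IFNL2 and IFNL3 could be tested, and limma called 0 in any comparison. At an unadjusted p under 0.05 there was 1 with siRBFOX2 and 1 between the knockdowns. IFNL1 was at 68.9, 76 and 259 with siCtrl, at 67.3, 33.1 and 233 with siQKI, and at 191, 244 and 475 with siRBFOX2. Replicate 3 was the highest in each group, and the siRBFOX2 values overlapped siCtrl (1.34 ± 0.63, adjusted p = 0.142, limma). IFNL2 and IFNL3 are near-identical, so their counts are uncertain. Without siCtrl replicate 3, IFNL1 (adjusted p = 0.0468, limma) and IFNL2 (0.0156) passed the threshold with siRBFOX2. Between the knockdowns IFNL1 passed it without siCtrl replicate 3 (adjusted p = 0.0418, limma) or siQKI replicate 3 (0.00662).

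Between sensor and interferon, 21 adaptors, kinases and other genes of RNA sensing were tested. With siRBFOX2, 8 rose and 2 fell. With siQKI, 4 rose and 5 fell. Between the knockdowns, 9 were lower with siQKI and 0 higher. The shares called were 47.6%, 42.9% and 42.9%, against 26.5%, 33.0% and 21.5% of all tested genes. NFKB1 was at 8547, 8227 and 8889 with siCtrl, at 10835, 11552 and 10653 with siQKI, and at 13788, 13720 and 14548 with siRBFOX2, so both knockdowns were above siCtrl. IKBKE, the kinase beside TBK1, was at 727, 862 and 703 with siCtrl and 1103, 1202 and 1219 with siRBFOX2 (0.62 ± 0.13, adjusted p = 0.00166, limma), and siQKI overlapped siCtrl. TRIM25, which activates RIG-I, fell with siQKI by 0.33 ± 0.05. MAVS differed by -0.08 ± 0.05 with siQKI and 0.02 ± 0.05 with siRBFOX2. IRF3 was called higher with siQKI (0.20 ± 0.07), a call lost without siCtrl replicate 1 (adjusted p = 0.124, limma), siQKI replicate 1 (0.101) or siQKI replicate 2 (0.0866).

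Of 14 tested genes of the receptor pathway, 2 rose and 5 fell with siRBFOX2 (50%, against 26.5% of all tested genes), and 0 rose and 4 fell with siQKI (28.6%, against 33.0%). Some of these calls depended on which libraries were kept. With siRBFOX2 the STAT3 rise was lost in 7 and the SOCS1 fall in 6 of the 9 fits that left out 1 library (adjusted p up to 0.18 and 0.196, limma), and with siQKI the JAK2 fall was lost in 6 of 9 (up to 0.207). IFNAR2, a subunit of the type I receptor, rose with siRBFOX2 (0.29 ± 0.06), and the feedback inhibitor SOCS3 fell (-0.31 ± 0.04). IL10RB, the shared subunit of the interferon-lambda receptor, fell with siQKI (-0.65 ± 0.09).

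Another 32 interferon-induced genes gave 15 higher and 6 lower with siRBFOX2, 5 higher and 7 lower with siQKI, and 5 higher and 12 lower with siQKI against siRBFOX2. The shares called were 65.6%, 37.5% and 53.1%, against 26.5%, 33.0% and 21.5% of all tested genes, so the siQKI share was near that of all genes. GBP4 was at 610, 447 and 316 with siCtrl and 913, 1304 and 1037 with siRBFOX2 (1.28 ± 0.23, adjusted p = 0.00076, limma). APOBEC3G, a cytidine deaminase, was at 254, 367 and 294 with siCtrl and 557, 748 and 595 with siRBFOX2 (1.06 ± 0.19, adjusted p = 0.000804, limma). GBP3 was at 900, 765 and 811 with siCtrl and 318, 392 and 397 with siQKI (-1.16 ± 0.15, adjusted p = 2.68e-05, limma). None of these groups overlapped. Among 8 tested cytokines and NF-kB feedback genes, 3 fell with siQKI and none rose (37.5%, near the 33.0% of all tested genes): CXCL8 (-1.46 ± 0.10), CCL2 (-1.18 ± 0.07) and NFKBIA (-0.48 ± 0.05). With siRBFOX2, CXCL8 also fell (-0.90 ± 0.10), TNFAIP3 rose (0.56 ± 0.13), and CCL5 rose (0.51 ± 0.16), the last lost without siCtrl replicate 2 (adjusted p = 0.0986, limma) or 3 (0.128), or siRBFOX2 replicate 2 (0.119).

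The siCtrl libraries of the lines differed far more than the knockdowns. Each line was normalised in a table of its own, so values were rescaled to a library sum of 1000000 (rescaled counts) and are described without a test. Of the 49 genes, 45 were at least 2-fold higher in HPAF-II and 1 was at least 2-fold lower, against 27.2% higher and 25.2% lower (52.4% in all) among 24673 genes present in either line. At least 4-fold higher were 37 (15.0% of all genes), and at least 10-fold higher were 26 (7.32% of all genes). The median log2 ratio was 3.52, against 0.08 for all genes, and 3.49 to 3.66 when any one of the 6 libraries was left out. Libraries of both lines did not overlap in any of the 49 genes, 48 higher and 1 lower in HPAF-II. Over all genes this held for 63.7%. In bulk RNA, a difference in the number of expressing cells and in RNA per cell cannot be told apart. Line and subtype cannot be told apart with 1 line of each.

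Beside IFI44L, which was listed at 0 in PANC-1, the largest ratios were in IFI27, IFI16, IFI44 and MX1. IFI27 was at 338, 297 and 794 rescaled counts in HPAF-II and at 0.26, 0.264 and 0.16 in PANC-1. IFI16, a nuclear DNA sensor, was at 238, 244 and 151 against 0.0735, 0.365 and 0.0175. MX1 was at 321, 385 and 202 against 1.29, 1.09 and 1.32. The log2 ratios were 10.97, 10.35 and 7.93, and IFI27 and IFI16 were below 1 rescaled count in every PANC-1 library. IFI44 was at 66.6, 70.9 and 39.9 against 0.263, 0.118 and 0.184 (log2 ratio 8.22). IFI44L, its neighbour, was at 37, 41.8 and 22.6 in HPAF-II. GBP1 was at 26.7, 28.2 and 14.5 against 0.201, 0.0775 and 0.0262 (log2 ratio 7.70).

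Sensors and synthetases were higher too, but unevenly. TLR3 was at 9.54, 9.56 and 5.44 rescaled counts in HPAF-II and at 0.0932, 0.0488 and 0.0175 in PANC-1, while DDX58 was at 47.2, 57.6 and 31.2 against 25.2, 24.7 and 26.3. The log2 ratio was 7.02 for TLR3, 3.70 for DHX58, 2.44 for IFIH1, 1.84 for EIF2AK2 and 0.84 for DDX58. OAS1 was at 96.4, 106 and 103 against 1.06, 1.43 and 0.746 (log2 ratio 6.55). OAS2 had a log2 ratio of 6.48, OASL of 3.82 and OAS3, the most counted in PANC-1, of 2.24. IRF9 was 16.8-fold higher in HPAF-II, beside 2.61-fold for STAT2, 3.46-fold for IRF1 and 2.36-fold for IRF7.

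Among the effectors, SAMD9L was at 68.9, 88.2 and 37.1 rescaled counts against 0.506, 0.353 and 0.615 (log2 ratio 7.01), and BST2 was at 409, 419 and 472 against 5.76, 5.89 and 4.14 (log2 ratio 6.36). IFIT3 was at 360, 497 and 195 against 14.1, 10.7 and 11.8 (log2 ratio 4.84), and SAMD9 at 218, 273 and 132 against 8.61, 8.29 and 8.55 (log2 ratio 4.61). In each case the lowest HPAF-II library was above the highest PANC-1 library. The log2 ratio was 6.18 for CMPK2, 6.15 for GBP2, 5.57 for XAF1, 5.24 for HERC6, 5.03 for RSAD2, 4.27 for PARP9, 4.20 for TRIM22 and 3.80 for UBE2L6.

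The exceptions were in the IFITM family, whose sequences are alike. IFITM2 was at 4.45, 3.52 and 6.17 rescaled counts in HPAF-II and at 97.6, 109 and 103 in PANC-1 (log2 ratio -4.45). IFITM3 was at 849, 844 and 1116 against 789, 801 and 724 (log2 ratio 0.28), and IFITM1 was 5.05-fold higher in HPAF-II. MX2 (log2 ratio 0.90) and DDX58 were the remaining genes within 2-fold.

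**Figure D4:**
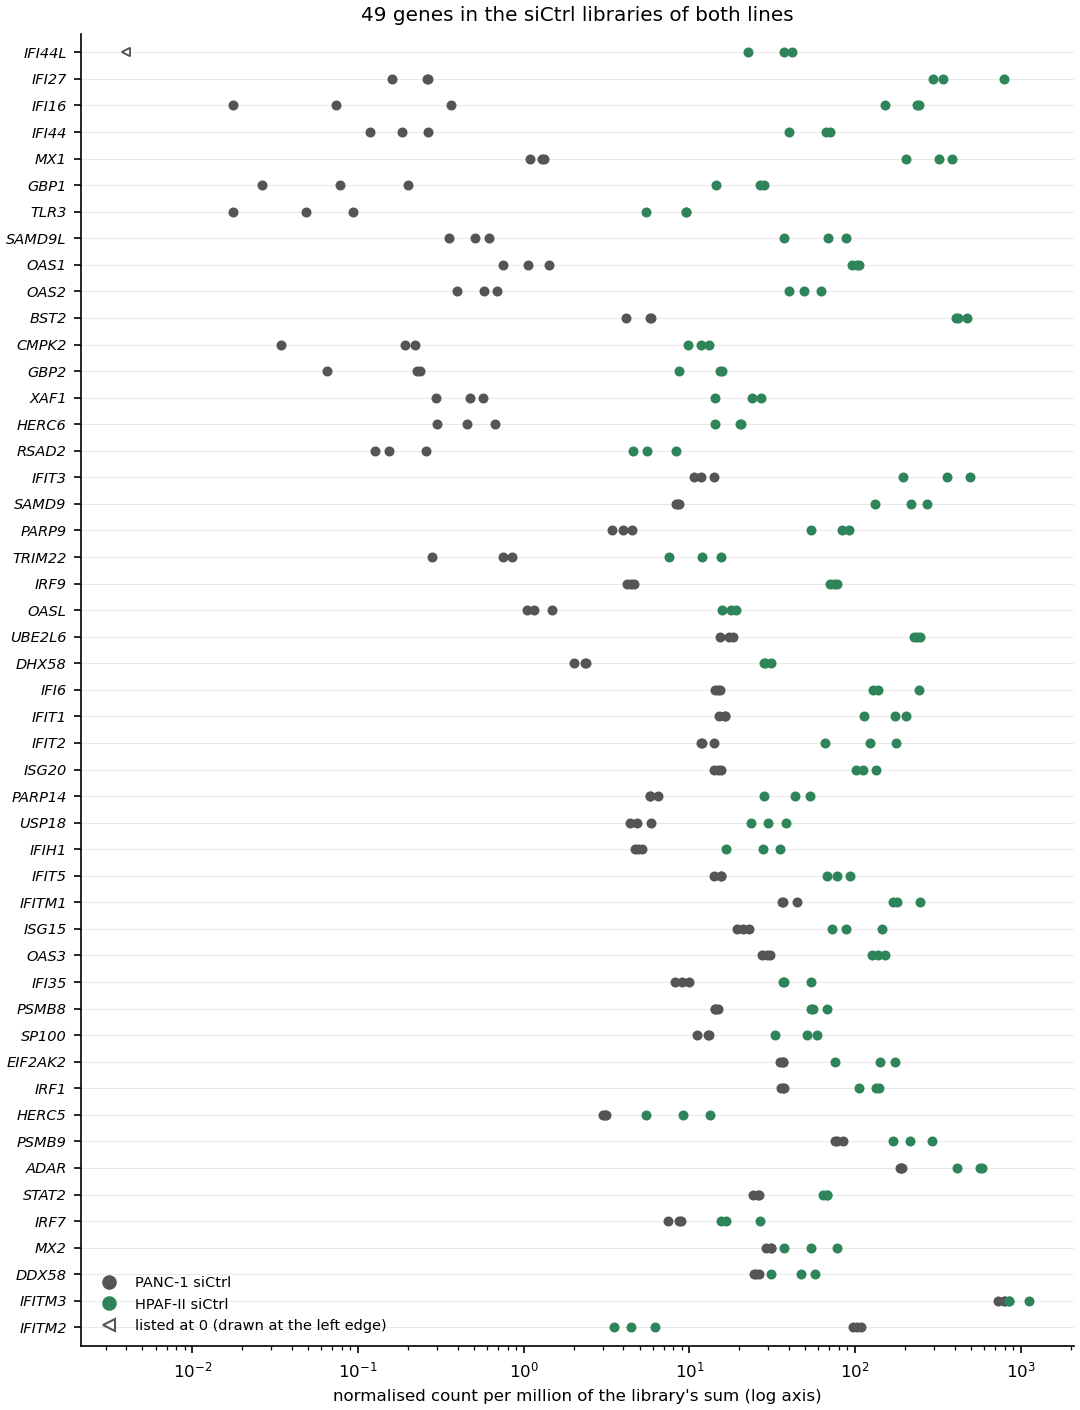
Rescaled counts, with a library sum of 1000000 (log x axis), of the 49 genes in 3 PANC-1 siCtrl (grey) and 3 HPAF-II siCtrl libraries (green), ordered by their ratio, with 1 point per library. IFI44L is listed at 0 in PANC-1 and drawn at the left edge; at the bottom IFITM2 is the only gene lower in HPAF-II.

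The HPAF-II libraries spread widely for these genes. Replicate 3 was the lowest of the 3 for 31 of the 49 genes (63.3%), against 33.8% of all genes, and replicate 2 was the highest for 34 (69.4%), against 29.2%. The genes did not shift as 1 block, since IFI27, IFI6 and ISG15 were highest in replicate 3 while the IFIT genes, MX1 and SAMD9L were lowest there. As sets, upstream genes were closer between the lines. The median log2 ratio was 0.17 for 21 adaptors, kinases and other genes of RNA sensing and 0.52 for 14 receptor pathway genes, against 3.52 for the 49 genes. The log2 ratio was 0.11 for MAVS and -0.08 for IRF3, and IFNB1 was at 0, 0 and 5.51 normalised counts in HPAF-II. Single genes still differed. Of the 21 RNA-sensing genes, 6 were at least 2-fold higher in HPAF-II and 4 lower. Of the 14 receptor pathway genes, 3 were higher and 3 lower. Over all genes 27.2% were higher and 25.2% lower. Among 4 interferon genes present in either line, IFNE was the 1 that was at least 2-fold higher (550, 300 and 477 normalised counts in HPAF-II, 26.8, 9.99 and 27.2 in PANC-1). Another 1 was at least 2-fold lower in HPAF-II.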

How the data were processed

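PolyA RNA of 12 libraries was sequenced by the study, aligned to hg38 (STAR 2.7.5a in the submitters' processing notes) and counted per FAST DB gene. The deposited signal values are counts that the authors divided by DESeq2 size factors, in separate tables for PANC-1 and HPAF-II. Low values were multiples of 3 steps in 82.1% to 84.8% of cases, so they are no fragments and no count test was run. Strand and pair handling are not given in the sources used here.

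Groups came from the sample labels. The 3 PANC-1 groups entered limma 3.58.1 (R 4.3.3; lmFit, eBayes with trend) on log2(normalised count + 1), in 1 fit of 9 libraries without a block, for genes with a mean of at least 10. For low genes these fold changes can differ from the ratio of group means. TLR3 had means of 8.62 with siQKI and 57.3 with siRBFOX2, and the fit gave a 10.86-fold difference. The procedure was tested on simulated data. Lines were described by values rescaled to 1000000, with a pseudocount of 0.01. Members, gene lists and tests were chosen with earlier results of these data known.

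Values in each library are given for genes called with a mean of at least 50 and a change of at least 1.25-fold (23 genes), and for the largest differences between lines among those at least 4-fold apart. IFNB1, MAVS and IRF3 are always given, with up to 3 called genes per further list, and the remaining genes enter as counts. Some genes of the further lists are not reported here by name. Alternatives were pseudocounts, filters, upper-quartile scaling, fewer groups, a replicate block, no trend, stricter thresholds and each library left out. Promoter windows came from RefSeq (GRCh38.p14). Summaries used Python 3.11.15 with pandas 2.3.3.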

Additional observations from a re-analysis of the deposited data

How the results depend on the processing

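No called difference of a listed gene changed direction under the alternatives run. Some that were not called crossed 0 with siQKI, such as OAS1 (-0.30 to 0.17), IFIH1 (-0.03 to 0.15) and PARP9 (-0.05 to 0.14), and upper-quartile rescaling turned the balance of all genes called with siQKI from 3362 higher and 4070 lower to 4225 and 3057. The number of listed genes called kept within 1.5 times of 17 (siQKI), 20 (siRBFOX2) and 28 (siQKI against siRBFOX2), except that a change of at least 1.5-fold left 7, 6 and 9, and that without the mean-variance trend 12 were called with siRBFOX2. The higher genes among the 17 were 2 to 6 without 1 library. Without the trend the calls of IRF1 in each knockdown, of IFIT1 and XAF1 with siQKI, of OAS1, STAT2, IFIT3 and PARP14 with siRBFOX2, and of OAS1, IRF9, IFITM1, XAF1 and PSMB8 between the knockdowns were among those lost. Without a filter IFIT1, XAF1 (also between the knockdowns) and OAS1 were lost, with only the groups compared IFIT1, XAF1 and OAS1, and under upper-quartile rescaling IFIT1 with siQKI and XAF1 between the knockdowns. Leaving out 1 library gave 15 to 17, 15 to 21 and 23 to 30 calls. Of the called genes, 13, 14 and 23 stayed called without any 1 library. Between lines, 46 genes were at least 2-fold apart and 46 to 47 without 1 library.

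Replicate numbers are shared by the groups, but same-numbered libraries did not deviate together (r from -0.0325 to 0.0235, against -0.0333 to 0.0384 for other pairs). With a replicate block 18, 19 and 32 genes were called, and of the named genes OAS1 with siRBFOX2 lost its call (adjusted p = 0.0556, limma). The fragments behind a value are unknown, so genes under 500 normalised counts are limited by the spread of 3 libraries. A match to overlapping genes, 21 of 49 here, cannot be resolved without strand.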
